A study of Mus musculus with 2 samples.

Results

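The Mir29 family comprises 4 microRNA (miRNA) hairpin genes at 2 loci, Mir29a and Mir29b-1 on chromosome 6 and Mir29b-2 and Mir29c on chromosome 1. The genes were taken by symbol, and all 4 were present among the 1973 miRNA genes of the count tables. The samples were facial prominences of B6NCrl mouse embryos at embryonic day 10.5, the outgrowths of neural crest mesenchyme and surface epithelium from which the face forms. They form 1 group of 2 biological replicates, each a pool of embryos of both sexes (69 embryos in replicate 1 and 51 in replicate 2), and no other stage, tissue, genotype or treatment is analysed here. Each gene therefore has 1 small RNA library per pool, and the comparisons are between genes within the tissue and between the pools.

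MiRNAs of the Mir29 family bind messenger RNAs through bases 2 to 8 of the 3p strand, the seed, and lower the output of those messages. Their best known targets are collagens, elastin and fibrillin, which build the extracellular matrix, and the enzymes that add methyl groups to DNA or start their removal. In adult organs the family is known to be low in fibrosis, and in several tissues it accumulates as cells mature. Facial mesenchyme later gives rise to matrix-rich cartilage, bone and connective tissue.

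The mature sequences below show what the members share and where they differ, with the seed in capitals. They are from RefSeq (GRCm38.p6, the same build as mm10), written 5′ to 3′, and all 4 genes matched that table. The Mir29b-1 and Mir29b-2 genes give an identical 3p strand, printed once.
miR-29a-3p: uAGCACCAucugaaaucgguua
miR-29b-3p: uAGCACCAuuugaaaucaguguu
miR-29c-3p: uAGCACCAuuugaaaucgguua
miR-29a-5p: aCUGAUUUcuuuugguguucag
miR-29b-1-5p: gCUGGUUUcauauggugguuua
miR-29b-2-5p: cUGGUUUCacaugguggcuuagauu
miR-29c-5p: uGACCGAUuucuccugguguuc

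All 3p strands carried the seed AGCACCA, which no mature miRNA of another gene in the RefSeq table had. Counted from the 5′ end, miR-29c-3p differed from miR-29a-3p by C10U alone. MiR-29b-3p differed from miR-29a-3p by C10U, G18A, U21G and A22U over the 22 bases compared, and was 1 base longer. None of these changes lies in the seed. The 5p strands each had a seed of their own, and the seed of miR-29b-2-5p was shared with 1 gene outside the family, Mir6338, which had 0 counts in both libraries.

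The loci were compact. Mir29a (ENSMUSG00000065610.1, 88 bases, chr6:31062660-31062747, minus strand) and Mir29b-1 (ENSMUSG00000065604.1, 71 bases, chr6:31063023-31063093, minus strand) lay 275 bases apart. Mir29b-1 overlapped by 2 bases an exon of the long non-coding RNA Gm27019 on its strand, and no other annotated transcript overlapped either hairpin. Mir29b-2 (ENSMUSG00000065412.2, 81 bases, chr1:195037040-195037120, plus strand) and Mir29c (ENSMUSG00000065548.1, 88 bases, chr1:195037547-195037634, plus strand) lay 426 bases apart. Both fell wholly within an exon of the non-coding transcript A330023F24Rik on their strand, and wholly within an untranslated exon of Cd46, a complement regulator, on the opposite strand. No read was counted on the opposite strand of any of the 4 genes in either library.

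The family was sparsely represented in the facial prominences. Levels are given as CPM, the count of a gene scaled to the total of counts on the strand of any miRNA gene (counts per 1000000), and intervals are exact Clopper-Pearson 95% intervals, which cover counting error only. Mir29c had 219 counts or 76.7 CPM in replicate 1 (66.9 to 87.6) and 300 counts or 85.3 CPM in replicate 2 (75.9 to 95.5). Mir29a had 98 counts or 34.3 CPM in replicate 1 (27.9 to 41.9) and 130 counts or 37.0 CPM in replicate 2 (30.9 to 43.9). Mir29c was thus above Mir29a in both libraries, with no overlap of their values or intervals. In bulk tissue a low level can mean few cells with the miRNA or little of it per cell, and these cannot be told apart here. Levels compare reads between genes, and how evenly the libraries captured different miRNAs was not tested.

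The Mir29b genes were near the limit of counting. Mir29b-1 had 3 counts or 1.05 CPM in replicate 1 (0.217 to 3.07) and 5 counts or 1.42 CPM in replicate 2 (0.462 to 3.32). Mir29b-2 had 0 counts in replicate 1, with an exact interval up to 1.29 CPM, and 2 counts or 0.569 CPM in replicate 2 (0.0689 to 2.05). Both lay below Mir29a in each library, while the intervals of Mir29b-1 and Mir29b-2 overlapped in each library, so these neighbours in the order of levels were not separated.

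**Figure D1:**
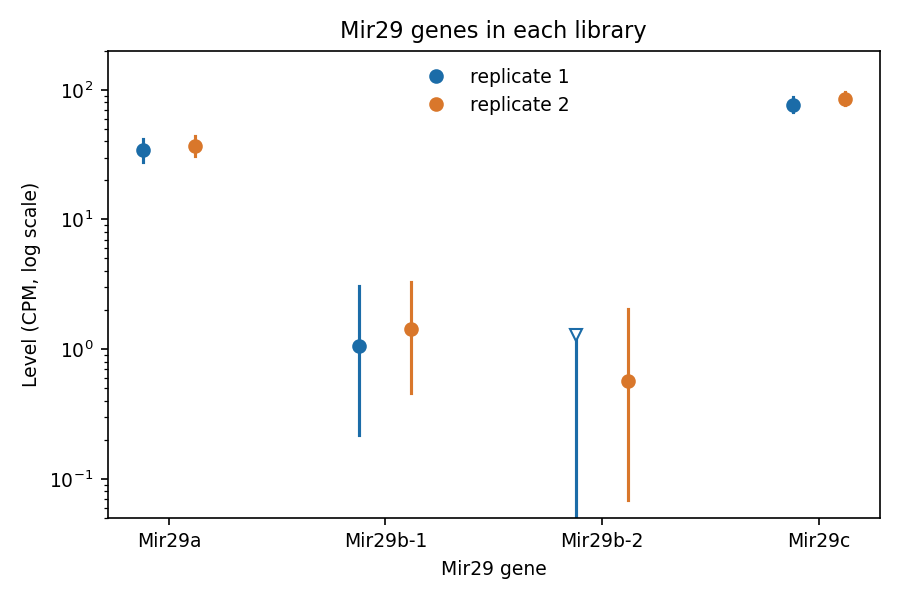
Level of each Mir29 gene in CPM on a log axis, with 1 point per library and bars for the exact 95% counting interval; the open triangle marks the upper end of the exact interval for Mir29b-2 in replicate 1, which had 0 counts. Mir29c lay at 76.7 and 85.3 CPM and Mir29a at 34.3 and 37.0 CPM in replicates 1 and 2, and both Mir29b genes stayed below 2 CPM.

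As mean ± SD over the libraries (n = 2), Mir29c averaged 81.0 ± 6.04 CPM, Mir29a 35.7 ± 1.85 CPM, Mir29b-1 1.24 ± 0.262 CPM and Mir29b-2 0.284 ± 0.402 CPM. The gap between Mir29c and Mir29a was larger than the spread between libraries of either gene, and so was the gap between Mir29a and Mir29b-1. The genes were counted in the same 2 libraries, and 2 pairs are too few for an exact permutation test to reach 0.05. Mir29c ranked 221 and Mir29a 255 of the 1973 genes, Mir29b-1 ranked 475, and Mir29b-2 tied with other genes from rank 633. Of the 1973 genes, 1232 had no count in either library. Among the 376 genes with at least 10 counts in each library, 155 were lower than Mir29c (41.2%) and 121 were lower than Mir29a (32.2%). The median of those 376 genes was 164 CPM, which is 2.03 times Mir29c and 4.61 times Mir29a. Mir29b-1 and Mir29b-2 did not reach 10 counts in either library.

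**Figure D2:**
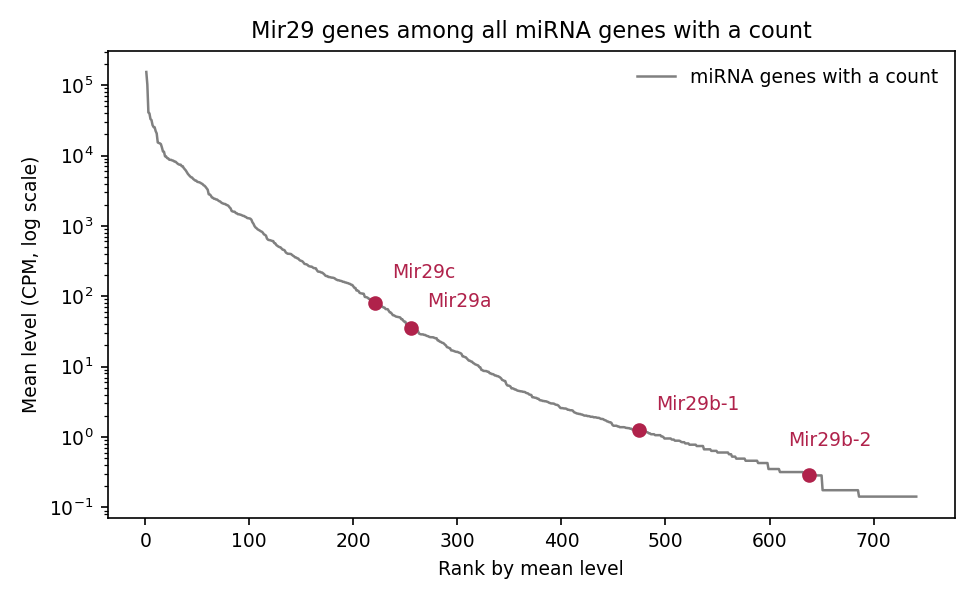
Mean level in CPM (log axis) against rank for every miRNA gene with a count in either library, with the Mir29 genes in red. Mir29c and Mir29a stood at ranks 221 and 255 with 81.0 and 35.7 CPM, and Mir29b-1 and Mir29b-2 further down with 1.24 and 0.284 CPM.

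The split within the family was close in both pools. Mir29c made up 68.4% of the family's counts in replicate 1 (63.0% to 73.5%) and 68.6% in replicate 2 (64.1% to 73.0%). Mir29a made up 30.6% in replicate 1 (25.6% to 35.99%) and 29.7% in replicate 2 (25.5% to 34.3%). Each of these shares moved by less than its counting interval. Mir29b-1 took 0.938% in replicate 1 and 1.14% in replicate 2, and Mir29b-2 took 0% in replicate 1 (exact interval up to 1.15%) and 0.458% in replicate 2.

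By locus, Mir29a and Mir29b-1 together had 35.4 CPM (replicate 1) and 38.4 CPM (replicate 2), against 76.7 CPM (replicate 1) and 85.9 CPM (replicate 2) for Mir29b-2 and Mir29c. The ratio of the chromosome 6 locus to the chromosome 1 locus was 0.461 in replicate 1 (0.361 to 0.586). It was 0.447 in replicate 2 (0.362 to 0.549), with a mean of 0.454 ± 0.01002 (SD, n = 2). For Mir29a over Mir29c alone the ratio was 0.447 in replicate 1 and 0.433 in replicate 2. Reads of miR-29b-3p map to both loci and may be in neither count, as described below. The ratio, the shares and the family sum may thus leave them out. The genes of each locus are known to be transcribed together, and within each pair the counts were far apart, with Mir29a above Mir29b-1 and Mir29c above Mir29b-2. A gene's count sums the reads of its 5p and 3p strands, so these are differences in reads per gene and not in one mature miRNA.

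The way reads were counted bears directly on the Mir29b genes. Reads that map to several places stand on a line of their own in the tables, outside the gene counts, and made up 27.6% of all reads in replicate 1 and 25.9% in replicate 2. The hairpins of Mir29b-1 and Mir29b-2 share an identical stretch of 25 bases, longer than the 23 bases of miR-29b-3p itself, so a read of exactly that strand maps to both genes. If, as that line implies, reads with several places entered no gene count, such a read is in neither count, and the level of miR-29b-3p cannot be read from these genes. The sources used here do not describe how such reads were handled. Mir29b-1 also shares 22 bases with Mir29c, whereas Mir29a shares at most 14 with any other member. Of all 22-base windows along the hairpins, 100% were unique among RefSeq hairpins for Mir29a and 98.5% for Mir29c, against 93.3% for Mir29b-2 and 90.0% for Mir29b-1. These windows were compared by exact match along whole hairpins, whereas miR-29a-3p and miR-29c-3p differ only by C10U. Whether reads with a mismatch were counted for the wrong gene was not tested. No hairpin outside the family shared more than 13 bases with a member.

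Families of related miRNAs gave the scale for these levels. The Mir29 genes together had 112 CPM (replicate 1) and 124 CPM (replicate 2), a mean of 118 ± 8.56 CPM or 0.0118% of all counts. The Mir148 and Mir152 family, also known for DNA methyltransferase targets, reached 932 CPM (replicate 1) and 940 CPM (replicate 2). The Mir26 family summed to 27367 and 26781 CPM, and the Mir30 family to 38471 and 32086 CPM, in replicates 1 and 2. The sum of the Mir29 family was the lowest of these 4 families in both libraries. By mean sums set over that of Mir29, the Mir148 and Mir152 family was 7.92 times, the Mir26 family 229 times and the Mir30 family 298 times as high. These gaps are in reads, and they exceed the spread between the libraries of each family. The families were counted in the same 2 libraries, too few for an exact permutation test of the gaps to reach 0.05.

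In the Mir26 and Mir30 families too, genes with an identical mature strand in another gene summed below the compared genes without one. Mir26a-1 and Mir26a-2, which share miR-26a-5p, summed to 41.0 ± 1.06 CPM, against 27033 ± 416 CPM for Mir26b, which has a sequence of its own. Mir30c-1 and Mir30c-2 summed to 157 ± 8.24 CPM, against 30434 ± 4231 CPM for Mir30a and Mir30e. Mir30b and Mir30d were not compared for this, and had 157 ± 3.46 CPM and 4531 ± 296 CPM. In the Mir29 family, Mir29b-1 and Mir29b-2 summed to 1.52 ± 0.664 CPM, against 117 ± 7.89 CPM for Mir29a and Mir29c. No mature strand in the Mir148 and Mir152 family was shared. Over all counted genes in the RefSeq table, 22 of 87 genes with an identical mature strand elsewhere lay above Mir29c, and 181 of 829 without one. The 87 genes had a median of 5.40 CPM and the 829 genes a median of 0.777 CPM. That order is the reverse of the order in the Mir26, Mir30 and Mir29 families. These classes were not matched for family or anything else. Whether genes with an identical copy lose reads was not tested.

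**Figure D3:**
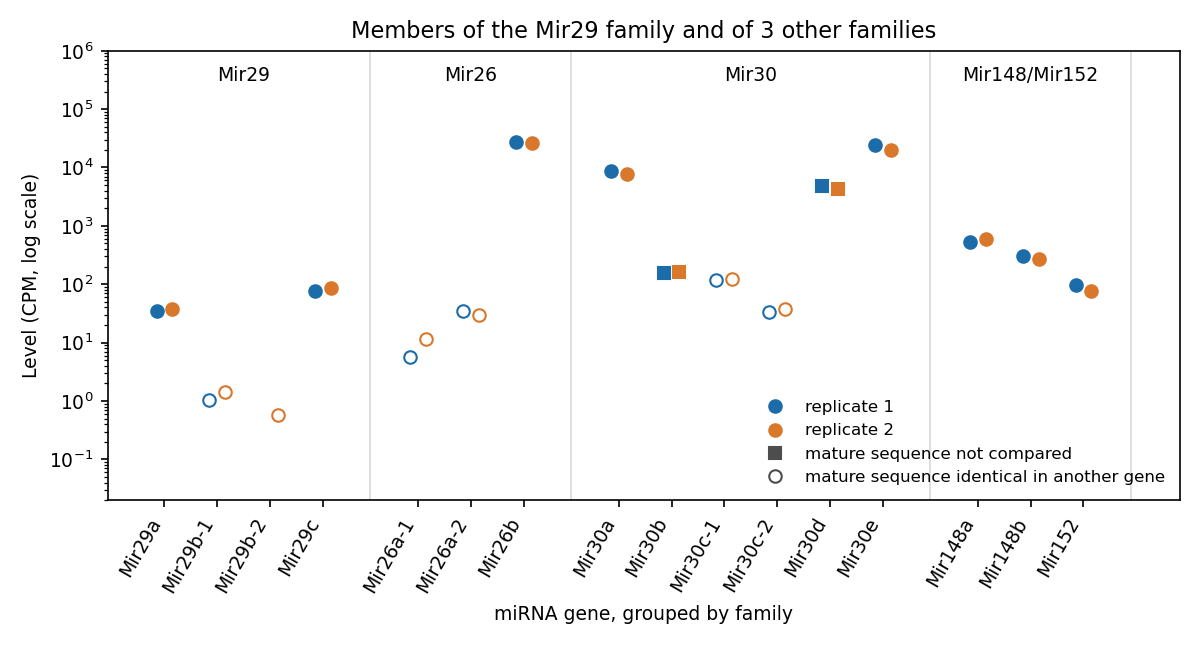
Level in CPM (log axis) of each member of the Mir29 family and of the Mir26, Mir30 and Mir148 and Mir152 families, with 1 point per library. Open points are genes whose mature strand is identical in another gene, squares are genes not compared for this, and Mir29b-2 has no point for replicate 1 (0 counts). The filled points of the Mir29 family, at 34.3 to 85.3 CPM, lay below the filled points of the other families except Mir152 in replicate 2.

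No Mir29 gene passed the test for a difference between the pools. The ratio of replicate 1 to replicate 2 was 0.929 for Mir29a (counting interval 0.707 to 1.22), a log2 ratio of -0.10 with a pseudocount of 0.5 CPM, and the two-sided exact binomial test gave an adjusted p of 0.748. The ratio was 0.900 for Mir29c (0.752 to 1.07), a log2 ratio of -0.15, with an adjusted p of 0.424 in the same exact test. The test compares the counts of the 2 libraries with the share set by their totals, and p-values were adjusted (Benjamini-Hochberg) across 449 genes having 10 or more counts in all. Of the 4 members 2 were tested and 0 passed a threshold of 0.05 (0 also at an unadjusted p under 0.05), where 40.3% of all tested genes passed, 91 higher and 90 lower in replicate 1. Among the 104 tested genes between 17.8 and 162 CPM, from Mir29a divided by 2 to Mir29c times 2, 30.8% passed. A p above the threshold does not show equal levels, and the intervals above give the ratios the counts allow. For Mir29b-1 the ratio was 0.740 with an interval of 0.115 to 3.801, too wide to compare the pools.

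**Figure D4:**
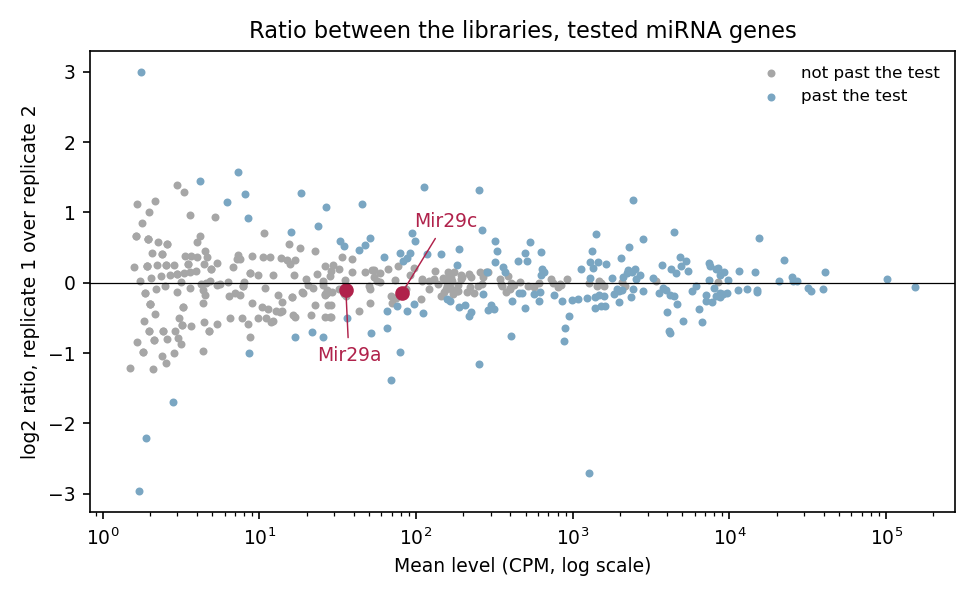
Log2 ratio of replicate 1 over replicate 2 against mean level in CPM (log axis) for the 449 tested miRNA genes, coloured by the exact binomial test. Mir29a at -0.10 and Mir29c at -0.15, in red, lay close to the line of equal levels and did not pass the test.

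Both tested members had smaller ratios than most genes. Over the 320 genes averaging 10 CPM or more, the SD of the log2 ratio was 0.39 and the median of its absolute value 0.18. Mir29a had a larger absolute ratio than 28.4% of those genes and Mir29c than 40.9%. The genes nearest to Mir29a in level over the 2 libraries, by distance on the log2 scale, were Mir672 with 34.8 ± 2.64 CPM, Mir30c-2 with 35.7 ± 3.40 CPM and Mir7-2 with 35.2 ± 0.749 CPM. Nearest to Mir29c were Mir19b-1 of the Mir17-92 cluster with 86.2 ± 3.95 CPM, Mir218-2 with 74.9 ± 7.83 CPM and Mir6540 with 75.4 ± 11.98 CPM. The distances ran from 0.06 to 0.20, and with 2 libraries they describe level more than pattern.

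The chromosome 6 locus lies in a region with some of the highest miRNA genes of this tissue. Mir335, in the imprinted gene Mest, was 321 kb away and had 153896 ± 4719 CPM (n = 2), on the opposite strand. The Mir183 cluster, known from sensory organs, was 893 to 897 kb away on the same strand, where Mir96 had 4911 ± 567 CPM, Mir183 had 11430 ± 971 CPM and Mir182 had 15336 ± 4663 CPM. Mir29a, at 35.7 ± 1.85 CPM, was lower than each of these neighbours in both libraries. Around the chromosome 1 locus, the other miRNA genes within 1 Mb had 1 count (Mir3962) and 0 counts (Gm24802) over both libraries.

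The layers of the face were present in both pools. A mesenchyme marker list of 7 genes summed to 28874 ± 2592 CPM and an epithelium list of 7 genes to 26328 ± 3342 CPM, with every gene of both lists at 10 or more counts in each library. The mesenchyme list was led by Mir214, Mir143 and Mir140, and the epithelium list by Mir205, Mir429 and Mir200c. The Mir29 family, at 118 ± 8.56 CPM, was below both sums. The leukocyte list summed to 457 ± 5.60 CPM, and Mir126a, the endothelial marker, had 33005 ± 1928 CPM. Some markers of several cell types passed the test between the pools. In replicate 1, 6 of 7 epithelium genes and 4 of 7 mesenchyme genes were higher in the exact binomial test. None of them passed in the other direction, and 40.3% of all tested genes passed in either direction. That share covers all levels, and small ratios pass more readily at high counts. The 4 mesenchyme genes that passed were the highest of their list, at 1330 CPM or more. The other mesenchyme genes ran from 10.6 to 184 CPM. No share at like level was computed for the marker lists or the other lists. The neural list summed to 1439 CPM in replicate 1, against 3434 CPM in replicate 2, with 2 genes higher and 4 lower of 8 tested. Most of that gap lay in Mir219a-2, with 339 CPM in replicate 1 against 2217 CPM in replicate 2. Mir219a-1 was also among the 4 lower genes. The median log2 ratio of the list's 6 detected genes was 0.01. It leaves out the other lower genes, Mir124a-2 (3 counts in replicate 1 against 16 in replicate 2) and Mir124a-3 (0 against 12). The erythroid list summed to 420 CPM in replicate 1, against 205 CPM in replicate 2, a gap carried by Mir451a with 359 CPM in replicate 1 against 143 CPM in replicate 2. The striated muscle list summed to 80.6 CPM in replicate 1, below the Mir29 family, and to 131 CPM in replicate 2, above it. That list was led by Mir208b with 69.3 ± 43.96 CPM, Mir206 with 18.4 ± 11.1 CPM and Mir208a with 9.86 ± 2.54 CPM, and Mir133a-1 and Mir133a-2 had 0 counts. The part of these shifts in the ratios of the Mir29 genes was not tested. Which cells carried the Mir29 reads was not tested.

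Other miRNAs known to act on matrix genes or on factors that induce them spanned a wide range, with 12 of 23 genes above Mir29c and 9 of 23 below Mir29a. The list holds 23 genes, 19 with at least 10 counts in each library, and summed to 82878 ± 5634 CPM. It was led by Mir26b with 27033 ± 416 CPM, Mir30e with 22232 ± 3456 CPM and Mir18 with 15075 ± 739 CPM, and Mir133a-1 and Mir133a-2 had 0 counts. Of 19 tested genes 5 were higher and 4 lower in replicate 1 in the exact binomial test, beside 40.3% called over all tested genes. Its median log2 ratio was 0.03 over the 19 detected genes, against -0.02 over all genes of at least 10 CPM. The miRNAs other than Mir29 with known targets among DNA methylation or demethylation enzymes (11 genes, all detected) summed to 41278 ± 1040 CPM, led by Mir26b, by Mir143 with 8449 ± 846 CPM and by Mir101b with 2426 ± 105 CPM. Of these 11 genes 9 were above Mir29c, 4 were higher and 4 lower in replicate 1 beside the same 40.3%, and the median log2 ratio was 0.03.

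No messenger RNA was measured, so the name of collagen regulators could be set only against sequence. A full seed match of the 3p strand reads TGGTGCT in DNA letters, and with an A after it, opposite base 1 of the miRNA, TGGTGCTA. These were searched on the sense strand of the longest annotated 3′ UTR of each gene in GENCODE M21, and each longer match also counts as a shorter one. Collagens, other matrix genes and DNA methylation genes were listed because they include known Mir29 targets, so their counts are no independent evidence. Within the opening 1000 bases of 3′ UTRs at least that long, TGGTGCT was found in 9 of 14 collagens (64.3%), 3 of 9 other matrix genes and 6 of 6 DNA methylation or demethylation genes, against 1028 of 10241 coding genes (10.04%). TGGTGCTA was found in 5 of 14 collagens (35.7%), 1 of 9 other matrix genes and 2 of 6 DNA methylation or demethylation genes, against 186 coding genes (1.82%).

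**Figure D5:**
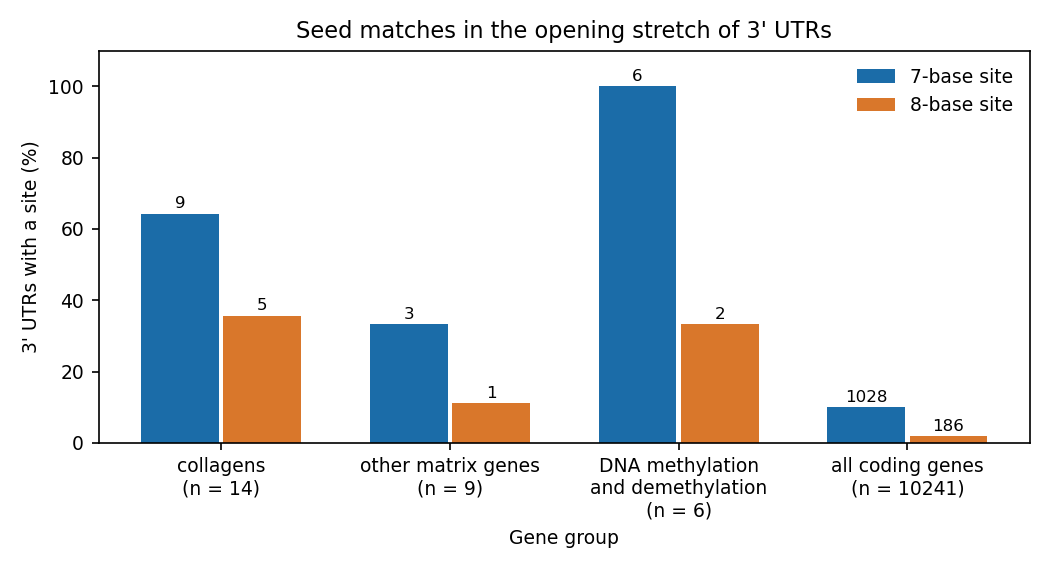
Share of genes with a seed match in the opening 1000 bases of the 3′ UTR, in percent, for 3 listed groups and all coding genes whose 3′ UTR is at least that long; the number over each bar counts the genes with a match. The 7-base site was present in 64.3% of 14 collagens, against 10.04% of 10241 coding genes.

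Over whole 3′ UTRs, 21 of 27 collagens held TGGTGCT and 15 held TGGTGCTA, against 13.1% and 2.85% of 21020 coding genes. Other matrix genes held TGGTGCT in 9 of 15 cases, and DNA methylation or demethylation genes in 6 of 8, with none in Dnmt1 and Dnmt3l, whose 3′ UTRs of 312 and 273 bases were too short for the window of 1000 bases. The median 3′ UTR was 1009 bases in the collagens and 961 bases in all coding genes. It was 1188 bases in other matrix genes and 2568.5 bases in DNA methylation or demethylation genes, where longer sequence gives more room for a match. Examples were chosen after the search to show 1 site each in collagens of bone and skin, of vessels and of cartilage, in elastin, and in a methyltransferase and a demethylating enzyme. Positions are on mm10, the site is in capitals, each sequence is read on the gene's strand, and the 5′ side faces the 3′ part of the miRNA.
Col1a1, chr11:94952523-94952545, plus strand: gtgggaaggaatttcTGGTGCTA
Col3a1, chr1:45348967-45348989, plus strand: ttcaaaatgtctcaaTGGTGCTA
Col2a1, chr15:97975681-97975703, minus strand: gcgtgtcctacacaaTGGTGCTA
Eln, chr5:134703736-134703758, minus strand: cgacctcatcaacgtTGGTGCTA
Dnmt3a, chr12:3911390-3911412, plus strand: cccaggggaggtagcTGGTGCTA
Tet3, chr6:83364336-83364358, minus strand: aaatagtctaataaaTGGTGCTA

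Other listed genes held repeated matches. Col4a5 of basement membranes had 3 matches to TGGTGCTA, and Col5a1 and Eln had 2 each. Tet3 had 8 matches to TGGTGCT, Tet1 7, Tet2 5 and Dnmt3a 5, in 3′ UTRs of 5669, 7962, 3058 and 6696 bases. Among the collagens Col1a2, Col6a1, Col10a1, Col11a2, Col12a1 and Col14a1 held none. A match describes the sequence and does not show that the miRNA acts there in this tissue.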

How the data were processed

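Small RNA libraries of 2 pools were read as deposited: unnormalized read counts for annotated miRNA genes, on mm10 with GENCODE M4 per the text files deposited with the tables. The sources used here do not name the aligner. Counts on the gene's strand were used (2853511 in replicate 1 and 3517226 in replicate 2, 97.6% of the gene reads in each). The 4 summary lines stayed out of the totals; unmapped reads were 21.6% and 24.1%, and reads outside the genes 9.01% and 9.32%, in replicates 1 and 2.

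CPM used those totals, so 3 counts equal 1.05 and 0.853 CPM. Symbols and positions came from GENCODE M21 on the same build, by identifier without version (1894 of 1973 matched), and sequences from RefSeq. Replicates were compared by two-sided exact binomial tests (scipy 1.17.1) with Benjamini-Hochberg adjustment over 449 genes, tested on simulated data. No contrast of conditions exists. TMM factors came from edgeR 4.0.16 and size factors from DESeq2 1.42.0. P-values cover counting error between these 2 libraries.

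The members, gene lists and tests were chosen with earlier results of these data known. The genes named are the members, the 3 genes nearest in level to each detected member, the 3 highest genes of each list described, and detected miRNA genes within 1 Mb. The neural, erythroid and leukocyte lists are given mainly by their sums. Members of the Mir26, Mir30 and Mir148 and Mir152 families beyond those 3 and the genes of the sequence search were named after their values were seen. So were Mir124a-2, Mir124a-3, Mir133a-1, Mir133a-2, Mir6338, Mir3962 and Gm24802.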

Additional observations from a re-analysis of the deposited data

How the results depend on the processing

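The family sum was 48.7 CPM with all reads of the table as the total and 140 CPM without the highest gene in the total, by construction of the total. In the same settings Mir29c had 33.4 and 95.8 CPM and Mir29a 14.7 and 42.1 CPM, and Mir29b-1 had 0.509 CPM with all reads. Without the Mir29b genes, an alternative chosen after seeing the data, the sum was 117 CPM and the share of Mir29c 69.4%. Leaving out every gene that shares 20 bases with another member left Mir29a alone (100%), so the ratio of the loci could not be given. Either-strand counts, TMM and DESeq2 size factors changed no level or share by more than 1 SD. Leaving out a replicate gives the value of the other library, which with 2 libraries always lies within 1 SD of the mean, so it says nothing of stability: the family sum was 112 to 124 CPM, Mir29b-2 was 0 to 0.569 CPM and the ratio of the loci 0.447 to 0.461. No Mir29 gene passed the exact binomial test in any setting. The adjusted p ran from 0.707 to 1 for Mir29a and from 0.339 to 1 for Mir29c, and the number of all genes past it from 150 to 186. The log2 ratio of Mir29b-2 ran from -2.74 to -0.16 with the pseudocount, since it rests on 0 and 2 counts. Genes, loci and families were compared within each library, and no paired test was made over only 2 libraries. Low counts limit the Mir29b genes, for which 3 counts equal about 1 CPM. Reads of miR-29b-3p that map to both genes may be in neither count at any depth.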

Other observations

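Lists outside matrix and DNA methylation were also described beside the Mir29 family. MiRNAs of fibroblast activation and TGF-beta signalling (15 genes, all detected) summed to 46821 ± 4862 CPM, with Mir214 at 14538 ± 1041 CPM, Mir143 at 8449 ± 846 CPM and Mir21a at 7503 ± 856 CPM. In this list 8 genes were higher and 0 lower in replicate 1 in the exact binomial test. Over tested genes of all levels 40.3% were called in either direction, and no share at like level was computed. Of the 15 genes 13 were above Mir29c. MiRNAs of bone and cartilage differentiation (18 of 19 listed genes matched) summed to 215515 ± 2690 CPM, with Mir335 at 153896 ± 4719 CPM, Mir322 at 25386 ± 307 CPM, followed by Mir214. Of these 18 genes 17 were above Mir29c, 6 were higher and 3 lower in replicate 1 beside the same 40.3%.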
